A study of Homo sapiens with 12 samples.

Results

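The epidermal growth factor receptor (EGFR) family was followed through 24 h of treatment of the human breast cancer line MDA-MB-231. The 10 genes were listed by name: the receptors EGFR, ERBB2 and ERBB3, the ligands HBEGF, AREG, EREG, BTC, TGFA and NRG1, and the feedback inhibitor ERRFI1. Of these, 8 had at least 1 probe set annotated to that symbol alone, among 11963 genes measured in all. AREG and ERRFI1 had no such probe set and were not analysed here. The 8 measured genes carried 24 probe sets, and each gene was read at its brightest probe set, judged over the 12 arrays. On GRCh38.p14 the receptor genes lie at chr7:55019017-55211628 (EGFR), chr17:39688094-39728658 (ERBB2) and chr12:56080108-56103505 (ERBB3). The ligand genes lie at chr5:140332843-140346603 (HBEGF), chr4:74365145-74388749 (EREG), chr4:74744759-74794523 (BTC), chr2:70447284-70553826 (TGFA) and chr8:31639245-32774046 (NRG1).

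Cells were given manassantin, rotenone, digoxin or the vehicle DMSO, and RNA of each group was hybridized to 3 arrays. Manassantin is a plant lignan that the design text names as manassantin A, rotenone inhibits respiratory complex I, and digoxin, a cardiac glycoside, blocks the sodium pump. The sample titles name digoxin where the design text names digitoxin, a related glycoside, and the titles' name is used here. Neither dose nor oxygen level is given in the sources used here. All cells were of 1 established line in serum-containing medium, a source of growth factors that all groups share. Whether the 3 arrays per group stem from independent cultures is not stated, and their spread, on which every p-value rests, may be technical. In bulk RNA, a change in the share of cells that express a gene and a change in its RNA per cell cannot be told apart.

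Ligands of this family are made as membrane-bound precursors, and proteases of the ADAM group release them from the cell surface. A bound ligand brings receptors together in pairs, and their kinase domains then switch on the RAS-ERK and PI3K-AKT pathways. ERBB2 has no known ligand of its own and serves as a partner, while ERBB3 has a weak kinase and signals through its partner. HBEGF, EREG and BTC bind EGFR and ERBB4, TGFA and AREG bind EGFR, and NRG1 binds ERBB3 and ERBB4. EGFR is known as strongly expressed in this cell line, which lacks ERBB2 amplification.

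Values were read as log2 intensities, judged from their range, so a difference of 1 is taken as a doubling. The 5 markers of mesenchymal breast lines that were checked, VIM, CD44, CAV1, AXL and MSN, had mean levels at the 97.3rd to 99.8th percentile of all genes. Of 7 luminal markers, PGR, CDH1 and ERBB3 were dim, meaning a mean under 5.747, the 40th percentile of all genes, while KRT19, GATA3, EPCAM and ESR1 were not. The mean level of the 7 luminal markers, ERBB3 included, lay between 6.20 and 6.33 with manassantin, 6.14 and 6.19 with rotenone and 5.87 and 6.01 with digoxin, against 6.17 and 6.18 with DMSO. That of the 5 mesenchymal markers lay between 12.31 and 12.33, 12.32 and 12.32, and 12.05 and 12.12 in the compound groups in the same order, against 12.33 and 12.35 with DMSO. The part of these shifts in the results was not tested. The 18S rRNA control, the mean of 3 probe sets, was lower than with DMSO by a log2 difference of -0.56 with manassantin (exact permutation test, two-sided, p = 0.3), -0.39 with rotenone (exact p = 0.2) and -0.31 with digoxin (exact p = 0.2), where 3 arrays against 3 cannot go below 0.1.

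The sequences before the start sites of HBEGF and EREG are shown because these were the ligands with the largest rise, and those of EGFR because it is the receptor that rose and has annotated start sites apart from each other. Each is the 250 bases before a start in RefSeq's GRCh38.p14 table, 5′ to 3′ on the gene's strand, with motif matches in capitals. HBEGF lies on chromosome 5, minus strand, and its window is chr5:140346604-140346853. EREG lies on chromosome 4, plus strand, with the window chr4:74364895-74365144. EGFR lies on chromosome 7, plus strand, with the windows chr7:55018767-55019016 before the first start and chr7:55109589-55109838 before a start inside the gene's span of 55019017 to 55211628.
HBEGF: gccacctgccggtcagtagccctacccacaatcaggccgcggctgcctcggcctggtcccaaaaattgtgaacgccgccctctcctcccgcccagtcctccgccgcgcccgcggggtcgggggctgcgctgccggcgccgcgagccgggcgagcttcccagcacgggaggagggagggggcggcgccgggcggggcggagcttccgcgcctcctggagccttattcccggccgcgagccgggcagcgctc
EREG: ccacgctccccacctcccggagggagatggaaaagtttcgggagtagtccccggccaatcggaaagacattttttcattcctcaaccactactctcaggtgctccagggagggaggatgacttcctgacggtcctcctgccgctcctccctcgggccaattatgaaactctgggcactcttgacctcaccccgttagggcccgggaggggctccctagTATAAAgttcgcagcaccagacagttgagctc
EGFR, first start: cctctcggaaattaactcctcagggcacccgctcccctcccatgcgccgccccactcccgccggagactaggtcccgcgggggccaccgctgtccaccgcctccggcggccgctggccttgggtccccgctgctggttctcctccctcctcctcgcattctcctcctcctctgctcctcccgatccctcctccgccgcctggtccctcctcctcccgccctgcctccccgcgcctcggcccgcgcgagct
EGFR, inner start: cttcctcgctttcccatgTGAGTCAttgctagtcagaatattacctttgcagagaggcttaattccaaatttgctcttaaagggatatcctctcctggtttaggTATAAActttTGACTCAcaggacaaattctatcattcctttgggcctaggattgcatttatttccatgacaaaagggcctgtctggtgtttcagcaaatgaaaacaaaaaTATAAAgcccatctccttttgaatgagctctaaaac

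The motifs searched on either strand were TGANTCA for AP-1, TGACGTCA for CRE, GCGNGGGCG for EGR factors, CACGTG for the E-box and TATAAA for the TATA box. EREG held TATAAA at -32 to -27 from its start. The inner EGFR start held TGAGTCA at -232 to -226, TGACTCA at -136 to -130 and TATAAA at -146 to -141 and at -36 to -31, with no overlap between these matches. HBEGF and the first EGFR start held none of these letters. The windows of ERBB2, TGFA and BTC, not shown, were searched as well. ERBB2, which was lower with digoxin, held the AP-1 match TGATTCA at -222 to -216. TGFA, which was higher, and BTC held no match. Of 35116 windows of the same length, 6.57% held the AP-1 motif, 1.65% CRE, 8.41% EGR, 6.34% the E-box and 10.7% the TATA box. The GC content was 76.4% for HBEGF, 58.0% for EREG, 73.6% for the first EGFR start and 38.8% for the inner one, where the median of all windows was 58%. A match here is a description of letters, and binding was not measured.

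Digoxin against DMSO changed 7 of the 8 measured genes. EGFR and the ligands HBEGF, EREG, TGFA and NRG1 were higher with digoxin, the partner receptors ERBB2 and ERBB3 were lower, and BTC did not pass the test. Genes are called where limma's adjusted p, Benjamini-Hochberg over all 11963 genes, was under 0.05. In this comparison 54.8% of all genes were called, 28% higher and 26.9% lower, so calls were common. The median absolute log2 difference was 0.56 over the 8 genes, beside 0.23 over all genes. Digoxin and DMSO arrays were fully separated for 7 of the 8, as they were for 61.9% of all genes.

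EGFR had log2 values of 10.20, 10.17 and 10.19 with digoxin, against 9.52, 9.56 and 9.56 with DMSO. Every digoxin array lay above every DMSO array, and the arrays within a group differed by less than 0.1. The rise was 0.64 ± 0.047 (SE, 3 arrays in each group) in log2 units, or 1.56-fold, with adjusted p = 2.45e-07.

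The partner receptors moved the other way. ERBB2 stood at 7.47, 7.39 and 7.56 with digoxin, against 7.93, 8.02 and 7.92 with DMSO. The groups did not overlap, and the log2 difference was -0.48 ± 0.0538 (SE, adjusted p = 9.45e-06). The other probe set of ERBB2, with means of 4.11 with digoxin and 3.94 with DMSO, did not pass (log2 difference 0.17, adjusted p = 0.255), and the mean of both fell short of the threshold at -0.15 (adjusted p = 0.081).

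ERBB3 read 4.19, 3.54 and 3.71 with digoxin, against 4.87, 4.68 and 4.58 with DMSO, and the groups did not overlap. The log2 difference was -0.90 ± 0.131 (SE, adjusted p = 9.1e-05), from a dim probe set whose digoxin arrays spread more (SD 0.333) than those of DMSO (SD 0.146). Its other probe set, also dim, went the opposite way, with 3.73, 3.35 and 3.62 with digoxin against 3.48, 3.26 and 3.12 with DMSO (log2 difference 0.28, adjusted p = 0.0434 over all probe sets). Averaged over both probe sets, ERBB3 was lower by -0.31 (adjusted p = 0.0311).

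Among the ligands, EREG, epiregulin, had the largest log2 difference. It read 7.92, 7.90 and 8.17 with digoxin, against 7.08, 7.03 and 7.10 with DMSO, without overlap, and rose by 0.93 ± 0.0743 (SE, 1.9-fold, adjusted p = 5.28e-07). By the size of its log2 difference it ranked 859 among the 11963 genes. BTC, betacellulin, lies on the same chromosome, 356 kb beyond the end of EREG and with AREG between them. BTC read 4.13, 3.95 and 3.96 with digoxin, against 3.95, 4.22 and 4.17 with DMSO. The groups overlapped on this dim probe set, and the log2 difference was -0.10 with a 95% interval of -0.27 to 0.07 (adjusted p = 0.297).

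HBEGF, the heparin-binding ligand, read 9.74, 9.80 and 9.87 with digoxin, against 8.96, 8.98 and 9.03 with DMSO. All digoxin arrays were above all DMSO arrays, and the rise was 0.81 ± 0.0584 (SE, 1.76-fold, adjusted p = 2.04e-07). The next brightest HBEGF probe set gave 9.57, 9.59 and 9.58 with digoxin, against 8.71, 8.79 and 8.79 with DMSO. Its rise was 0.81 as well (adjusted p = 1.26e-07 over all probe sets). The remaining HBEGF probe set, which was dim, stood at 0.32 and did not pass (adjusted p = 0.0608 over all probe sets).

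TGFA, transforming growth factor alpha, read 9.84, 9.73 and 9.82 with digoxin, against 9.45, 9.57 and 9.57 with DMSO. The arrays did not overlap, but the rise was small, at 0.27 ± 0.0528 (SE, adjusted p = 0.00101). The other 2 TGFA probe sets did not pass, at -0.04 and 0.13, and averaged over its probe sets TGFA stood at 0.12 (adjusted p = 0.0781).

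NRG1, neuregulin 1, read 9.81, 9.84 and 9.79 with digoxin, against 9.40, 9.51 and 9.54 with DMSO. The groups did not overlap and the rise was 0.33 ± 0.0575 (SE, adjusted p = 0.00037). Its direction depended on which of its 6 probe sets was read.

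**Figure D1:**
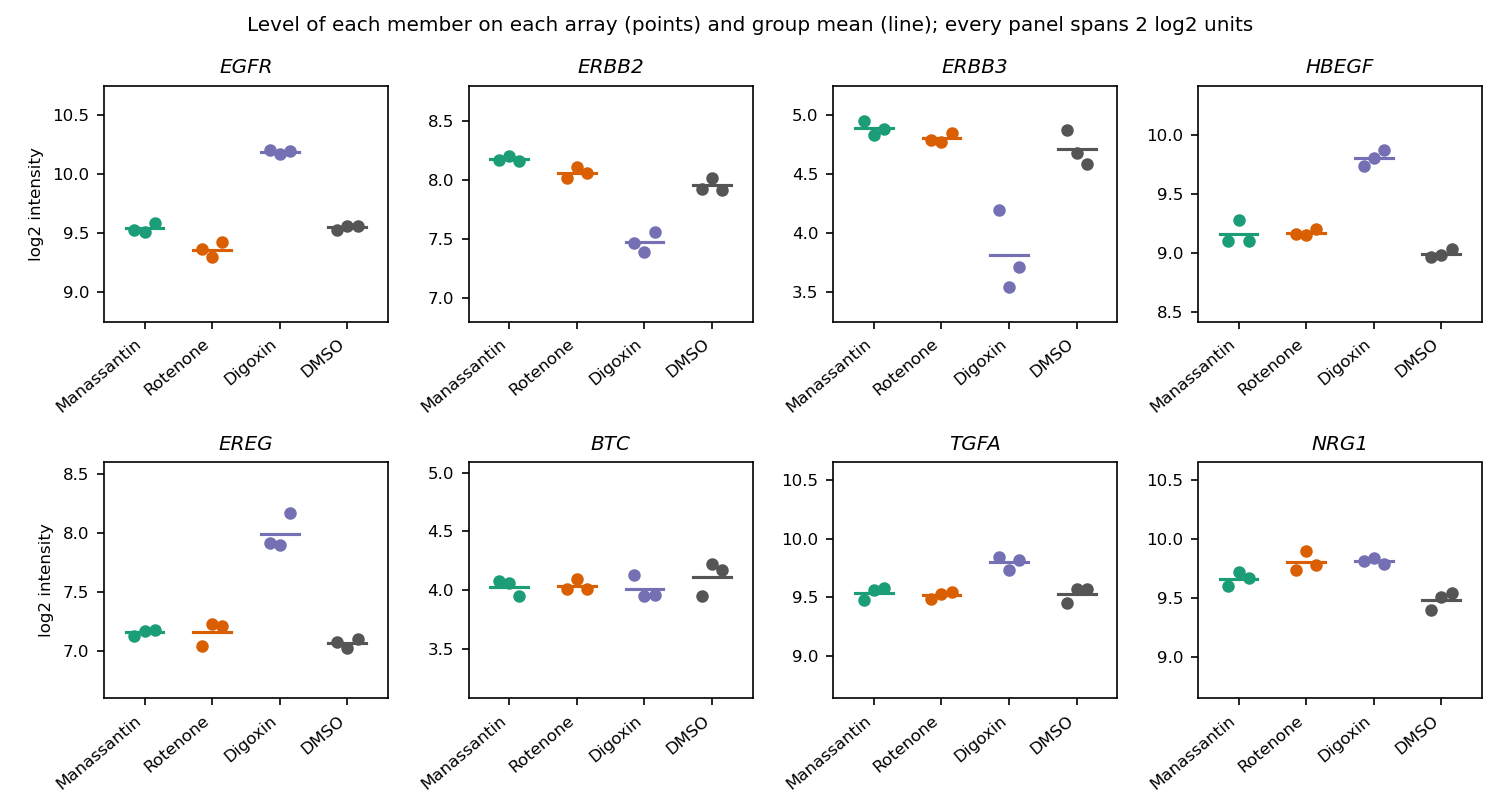
Log2 intensity (vertical axis) of the 8 measured genes at the main probe set, with a point for each array and a line at each group's mean, for manassantin, rotenone, digoxin and DMSO. The digoxin points of EGFR, HBEGF, EREG and TGFA lie above all DMSO points, those of ERBB2 and ERBB3 below them, and BTC overlaps.

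Manassantin against DMSO called none of the 8 genes by limma, against 0.97% of all genes called in this comparison, 0.853% higher and 0.117% lower. Without adjustment, 3 of the 8 had p under 0.05, as did 1896 of all 11963 genes. The median absolute log2 difference of the 8 was 0.13, beside 0.07 over all genes. Manassantin and DMSO arrays were fully separated for 4 of the 8, ERBB2, HBEGF, EREG and NRG1, each higher with manassantin, and for 22.4% of all genes.

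ERBB2 had the largest log2 difference with manassantin. It read 8.17, 8.21 and 8.16 with manassantin, against 7.93, 8.02 and 7.92 with DMSO, without overlap. The log2 difference was 0.22 ± 0.0538 (SE, adjusted p = 0.0724), with a 95% interval of 0.11 to 0.34. It passed in 2 alternative fits, without dim genes (adjusted p = 0.022) and under a robust prior with a trend (adjusted p = 0.0274). ERBB2 did not pass with the mean of its probe sets (log2 difference 0.10, adjusted p = 0.525) or with the 18S control as covariate (adjusted p = 0.516). Nor did it pass with any array of these groups left out (adjusted p = 0.124 to 0.259). Its other probe set stood at -0.02 (adjusted p = 0.966 over all probe sets).

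NRG1 read 9.60, 9.72 and 9.67 with manassantin, against 9.40, 9.51 and 9.54 with DMSO (log2 difference 0.18, 95% interval 0.05 to 0.30, adjusted p = 0.155). HBEGF read 9.10, 9.28 and 9.10 with manassantin, against 8.96, 8.98 and 9.03 with DMSO (log2 difference 0.17, 95% interval 0.04 to 0.30, adjusted p = 0.174). Neither passed, although no manassantin array of these genes fell among the DMSO arrays. NRG1 passed under a robust prior with a trend (adjusted p = 0.0453). With the mean of its probe sets NRG1 stood at -0.02 (adjusted p = 0.88), and with the 18S control as covariate the adjusted p was 0.539. Of its 6 probe sets 2 stood above 0, and none was called. EGFR read 9.52, 9.51 and 9.58 with manassantin, against 9.52, 9.56 and 9.56 with DMSO, and the groups overlapped (log2 difference -0.01, 95% interval -0.11 to 0.09). TGFA stood at 0.01 with a 95% interval of -0.11 to 0.12, EREG at 0.09 with -0.08 to 0.25, BTC at -0.09 with -0.26 to 0.08 and ERBB3 at 0.18 with -0.11 to 0.47.

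Rotenone against DMSO called 2 of the 8, NRG1 higher and EGFR lower, in a comparison where 6.94% of all genes were called, 3.55% higher and 3.39% lower. The median absolute log2 difference was 0.10 over the 8 and 0.08 over all genes. Groups did not overlap for 4 of the 8, against 31.2% of all genes.

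NRG1 read 9.74, 9.90 and 9.78 with rotenone, against 9.40, 9.51 and 9.54 with DMSO. No rotenone array overlapped the DMSO arrays, and the rise was 0.33 ± 0.0575 (SE, 1.25-fold, adjusted p = 0.00613). The other 5 NRG1 probe sets were not called, and averaged over all 6 the difference was 0.07 (adjusted p = 0.494).

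EGFR read 9.36, 9.29 and 9.42 with rotenone, against 9.52, 9.56 and 9.56 with DMSO, without overlap. The log2 difference was -0.19 ± 0.047 (SE, adjusted p = 0.0321). The call was lost without DMSO replicate 1, 2 or 3 (adjusted p = 0.0613, 0.11 and 0.108) and without rotenone replicate 1 or 2 (adjusted p = 0.089 and 0.136). The next brightest EGFR probe set stood at 0.11 (adjusted p = 0.268 over all probe sets), and averaged over 6 probe sets EGFR stood at -0.01.

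HBEGF read 9.16, 9.15 and 9.20 with rotenone, against 8.96, 8.98 and 9.03 with DMSO, without overlap but short of the threshold (log2 difference 0.18, 95% interval 0.05 to 0.31, adjusted p = 0.0889). It passed without dim genes (adjusted p = 0.0358), under a robust prior with a trend (adjusted p = 0.0263) and with weighted arrays (adjusted p = 0.0245). With the mean of its probe sets HBEGF stood at 0.11 (adjusted p = 0.437) and with the 18S control as covariate at 0.14 (adjusted p = 0.315). Without DMSO replicate 1 or 2 the adjusted p was 0.202 and 0.21. ERBB2 stood at 0.11 (95% interval -0.01 to 0.23), ERBB3 at 0.09 (-0.19 to 0.38), EREG at 0.09 (-0.08 to 0.25), BTC at -0.08 (-0.24 to 0.09) and TGFA at -0.01 (-0.12 to 0.11).

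**Figure D2:**
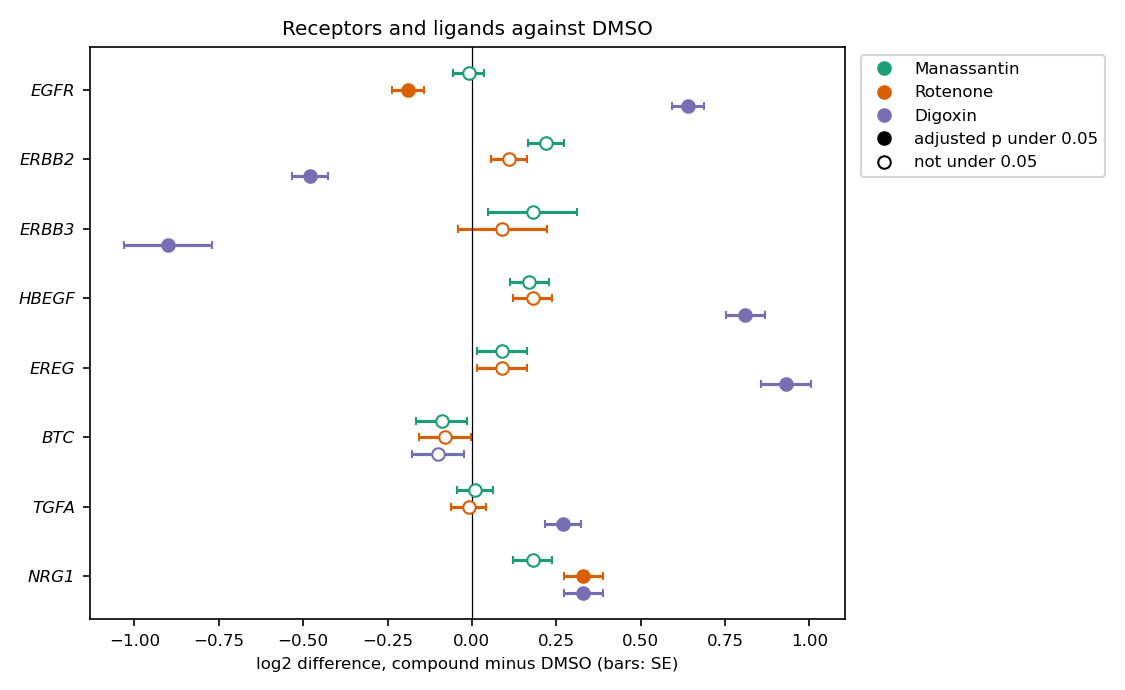
Log2 difference of each compound minus DMSO (horizontal axis) for the 8 genes, with bars of 1 standard error and filled points where the adjusted p was under 0.05. Digoxin gives 7 filled points from -0.90 for ERBB3 to 0.93 for EREG, rotenone gives 2 and manassantin gives none. Of all genes 54.8% were called with digoxin, 6.94% with rotenone and 0.97% with manassantin.

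These 3 comparisons share the DMSO arrays, so the compounds were also set against each other directly. Manassantin against digoxin called 7 of the 8, 2 higher and 5 lower with manassantin, in a comparison that called 56.7% of all genes, 28.1% higher and 28.6% lower. The arrays were fully separated for 7 of the 8 and for 59.7% of all genes. EREG was lower with manassantin (log2 difference -0.84 ± 0.0743 SE, adjusted p = 1.14e-06), as were EGFR (-0.65) and HBEGF (-0.64). ERBB3 was higher with manassantin by 1.08 ± 0.131 (SE, 2.11-fold, adjusted p = 1.85e-05) and ERBB2 by 0.70 ± 0.0538 (adjusted p = 3.12e-07). The other ERBB3 probe set was lower with manassantin at -0.29 (adjusted p = 0.0332 over all probe sets) and the other ERBB2 probe set stood at -0.19 (adjusted p = 0.204). With the mean of probe sets ERBB3 was higher by 0.39 (adjusted p = 0.00942) and ERBB2 by 0.26 (adjusted p = 0.00797). TGFA was lower at -0.26 (adjusted p = 0.00127) and NRG1 at -0.15 (adjusted p = 0.0386), while BTC stood at 0.01 (adjusted p = 0.915). Averaged over its probe sets TGFA stood at -0.11 and was not called (adjusted p = 0.0856). NRG1 turned to 0.17 (adjusted p = 0.0205) when averaged, with 206237_s_at higher with manassantin by 0.98 (adjusted p = 9.21e-05 over all probe sets). The NRG1 call at the brightest probe set was lost with manassantin replicate 1 or 3 or any digoxin array left out (adjusted p = 0.0525 to 0.135).

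Rotenone against digoxin called 6 of the 8, 2 higher and 4 lower with rotenone, where 50.5% of all genes were called, 26.3% higher and 24.2% lower. The arrays were fully separated for 6 of the 8 and for 58.1% of all genes. EGFR was lower with rotenone at -0.83 ± 0.047 (SE, 1.78-fold, adjusted p = 3.32e-08), EREG at -0.84, HBEGF at -0.63 and TGFA at -0.27. ERBB3 was higher with rotenone by 0.99 ± 0.131 (SE, adjusted p = 4.24e-05) and ERBB2 by 0.59. With the mean of probe sets these were 0.38 for ERBB3, 0.24 for ERBB2 and -0.14 for TGFA, all called. NRG1 read 9.74, 9.90 and 9.78 with rotenone and 9.81, 9.84 and 9.79 with digoxin, and these overlapped at the brightest probe set (adjusted p = 0.959). Of its 6 probe sets, 3 were called higher with rotenone, 206237_s_at by 1.16 (adjusted p = 2.63e-05 over all probe sets) among them, and 1 lower. The mean of the 6 was higher with rotenone by 0.26 (adjusted p = 0.00132).

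Manassantin against rotenone called only EGFR among the 8, where 8.47% of all genes were called, 4.69% higher and 3.78% lower. The arrays were fully separated for 3 of the 8 and for 29.2% of all genes. EGFR was higher with manassantin by 0.18 ± 0.047 (SE, 95% interval 0.08 to 0.28, adjusted p = 0.0352), with no overlap of arrays. Of its 6 probe sets only the brightest was called, the next stood at 0.06 (adjusted p = 0.532 over all probe sets), and their mean stood at 0.04 (adjusted p = 0.713). The call was lost without rotenone replicate 1 or 2 or any manassantin array (adjusted p = 0.0512 to 0.134). NRG1 stood at -0.15 (adjusted p = 0.139), and ERBB2 at 0.12 (adjusted p = 0.221).

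The order of levels across groups was read at the brightest probe set of each gene. EGFR was lowest with rotenone and highest with digoxin, and manassantin and DMSO did not differ beyond their spread. ERBB2 and ERBB3 were lowest with digoxin, and DMSO, rotenone and manassantin followed without a called step between neighbours. For HBEGF and EREG the order was DMSO, manassantin, rotenone and digoxin, with a called step only before digoxin. TGFA was highest with digoxin and its other groups did not differ beyond their spread, while the NRG1 order was DMSO, manassantin, rotenone and digoxin with no called step between neighbours. No group of BTC stood apart from its neighbours. Other probe sets gave other orders. At 201984_s_at EGFR was lowest with DMSO, at 8.31, against 8.42 with rotenone and 8.48 with manassantin. At 206237_s_at NRG1 was lowest with digoxin, at 4.78, against 5.73 with DMSO. The other probe sets of ERBB2 and ERBB3, all dim, had their highest mean with digoxin.

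The direction of small changes in the digoxin comparisons depended on the scale. Against DMSO, digoxin had 3347 genes called higher and 3214 lower, and 5020 and 2685 after each array was centred on its median, which moved the median over all genes to 0.15 against 0.07. Against digoxin, manassantin had 3363 higher and 3418 lower, and 2797 and 5047 after centring. Rotenone had 3147 and 2892 against digoxin, and 2629 and 4494 after centring. With centring digoxin still called 7 of the 8 genes against DMSO, EGFR at 0.73, ERBB3 at -0.81 and NRG1 at 0.42 among them.

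Probe sets of EGFR did not respond alike. The brightest was 201983_s_at and the next 201984_s_at, which read 9.94, 9.92 and 9.97 with digoxin, against 8.29, 8.33 and 8.32 with DMSO. That rise was 1.63 ± 0.0506 (SE, adjusted p = 3.38e-10 over all probe sets), beside 0.64 at the brightest. All 6 EGFR probe sets stood above 0 with digoxin, from 0.12 to 1.63, and 4 of them were called higher. With manassantin the 6 lay between -0.12 and 0.22 and with rotenone between -0.19 and 0.11.

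Within each array the value of 201984_s_at minus that of 201983_s_at was -0.27, -0.25 and -0.22 with digoxin, against -1.23, -1.23 and -1.24 with DMSO. It averaged -1.05 ± 0.0908 with manassantin and -0.94 ± 0.0599 with rotenone, against -1.23 ± 0.00917 with DMSO (SD, n = 3 each). Every compound array thus had a smaller gap than every DMSO array, by 0.99 with digoxin, 0.18 with manassantin and 0.30 with rotenone (exact permutation test, two-sided, p = 0.1 each, the smallest that 3 against 3 allows). The same difference was taken for each gene with a further probe set that was not dim, a comparison chosen after the values had been seen. The HBEGF difference averaged -0.22 in digoxin arrays, against -0.22 in DMSO arrays (exact p = 1). For TGFA it averaged -3.70 in digoxin arrays, against -3.39 in DMSO arrays (exact p = 0.1). What part of the transcript each probe set reads was not examined here.

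**Figure D3:**
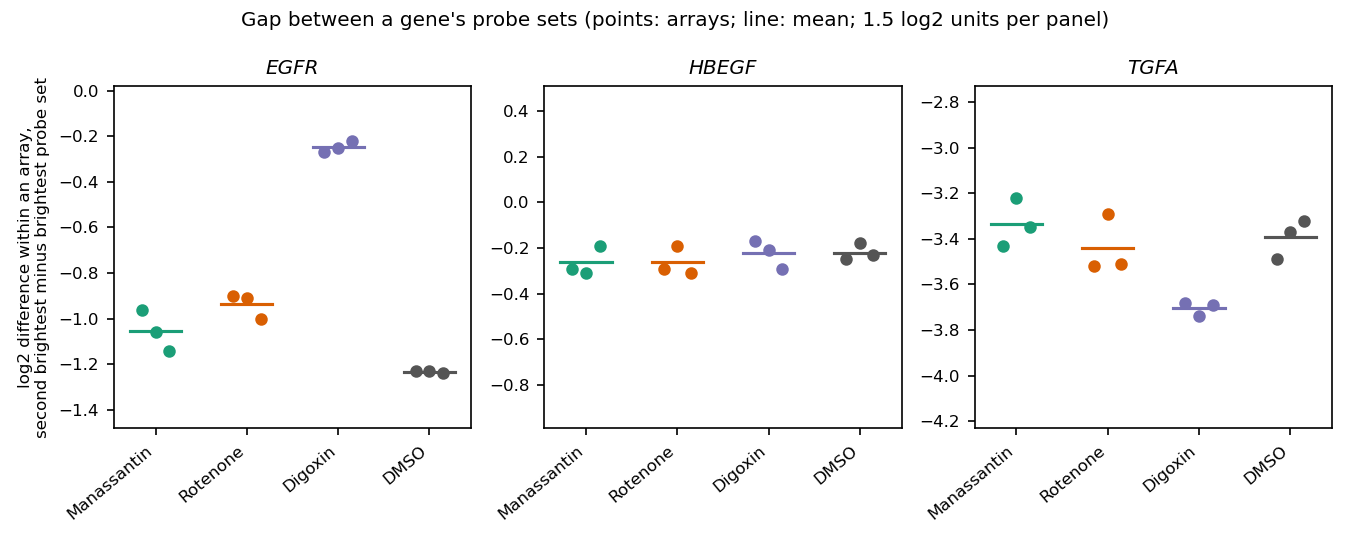
Log2 difference within an array between a gene's second-brightest and brightest probe set (vertical axis), for genes with a further probe set that was not dim, with a point for each array and a line at the mean. The EGFR gap is near -0.24 with digoxin and -1.23 with DMSO, while the HBEGF points of all groups overlap.

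NRG1 probe sets disagreed in direction with digoxin. The brightest, 206343_s_at, rose as given above, while 206237_s_at, a dim one, read 5.04, 4.38 and 4.93 with digoxin, against 5.68, 5.62 and 5.90 with DMSO. Its log2 difference was -0.95 ± 0.144 (SE, adjusted p = 0.000128 over all probe sets), and the groups did not overlap. The other 4 were not called, from -0.25 to 0.00. Averaged over the 6, NRG1 was lower with digoxin by -0.19 (adjusted p = 0.0104), the reverse of the brightest. NRG1 is known for many isoforms from separate start sites, and which isoforms each probe set detects was not examined here.

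**Figure D4:**
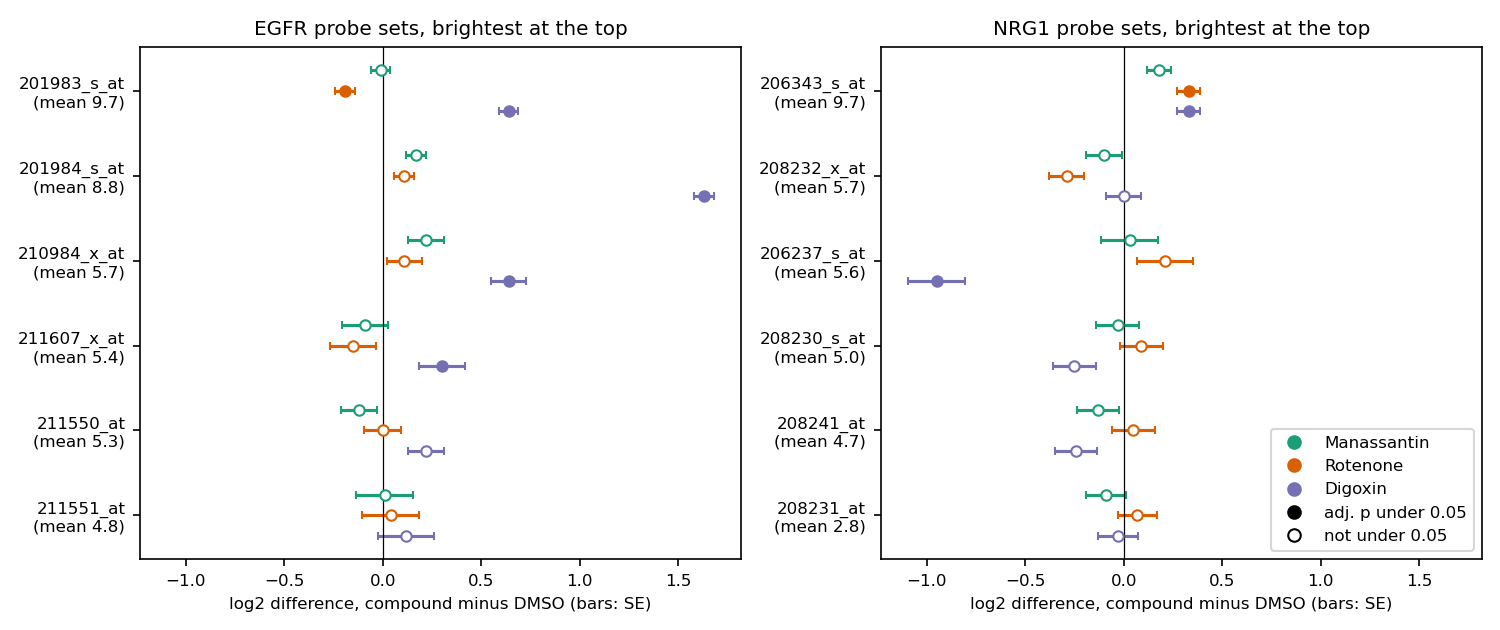
Log2 difference of each compound minus DMSO (horizontal axis, bars of 1 standard error) at each of the 6 probe sets of EGFR and of NRG1, with the mean level over all arrays beside the probe set's name. All 6 digoxin points of EGFR lie above 0 and reach 1.63, whereas those of NRG1 run from -0.95 to 0.33.

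Profiles most like those of EGFR and NRG1, the genes called in at least 2 comparisons with DMSO, were sought by Pearson's r over the 12 arrays among genes that were not dim. EGFR was most like RPA2 (r = 0.994), FOXN3 (0.992) and PSMC3IP (0.992). NRG1 was most like TOR1B (0.961), LPXN (0.945) and MMP1 (0.940). The 12 arrays fall into 4 groups that share their treatment, so these values describe the pattern and carry no test.

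The rest of the pathway was read from 7 lists of genes that act with these receptors, again chosen with earlier results of these data known. Among ligand sheddases and rhomboid proteins, digoxin had 2 of 8 higher and 2 lower, with a median log2 difference of 0.01, beside 0.07 over all genes. Of all genes 28% were called higher with digoxin and 26.9% lower. RHBDF1 rose by 0.64 ± 0.0654 (SE, adjusted p = 4.4e-06) and RHBDF2 was lower at -0.69 ± 0.0738 (adjusted p = 5.93e-06). These are related inactive rhomboid proteins that escort the sheddase ADAM17 to the cell surface. ADAM12, which was dim, rose by 0.33, and ADAM10, itself a sheddase of this family's ligands, was lower at -0.20.

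Of 9 adaptors and exchange factors, 1 rose with digoxin and 5 fell, with a median of -0.17. Over all genes 28% were called higher with digoxin and 26.9% lower, and the median was 0.07. GRB2, the adaptor between receptor and SOS, rose by 0.34 (adjusted p = 0.000411). SOS1, the exchange factor that loads RAS, stood at -0.58 (adjusted p = 5.53e-05), with the docking protein GAB2 at -0.50 and the adaptor NCK1 at -0.25. In the RAS-RAF-MEK-ERK core 2 of 6 rose and none fell, with a median of 0.01. These were the kinase ARAF (0.53) and the scaffold KSR1 (0.32), which was dim. Of 10 genes of the PI3K-AKT, PLCG and STAT arm, 2 rose and 3 fell around a median of 0.00, with the transcription factor STAT3 at 0.62, the PI3K regulatory subunit PIK3R1 at -0.52, the phospholipase PLCG1 at -0.24 and the kinase PDPK1 at 0.20.

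Of 19 genes of receptor degradation and negative regulation, 9 rose and 2 fell with digoxin, with a median of 0.16. STAM, an endosomal sorting adaptor, rose by 0.73 ± 0.0545 (SE, adjusted p = 2.81e-07), the ubiquitin ligase CBLB by 0.49 and the sorting protein TSG101 by 0.41, while the phosphatase PTPN2 stood at -0.48. Of 10 MAP kinase output genes 6 rose and 3 fell, with a median of 0.26. EPHA2, an ephrin receptor gene, rose by 0.94 and the ERK phosphatase DUSP6 by 0.49, while ETV5 stood at -0.44 and DUSP4 at -0.38. The remaining list, other receptors and ligands, had 3 of 6 genes measured, of which none rose and 2 fell, EGF at -0.36 and NRG2 at -0.22, both dim. Of these 2 calls, 0 to 1 was left without DMSO replicate 2 or 3 or any 1 digoxin array. In each of the 7 lists the share called can be read against the 54.8% of all genes called, 28% higher and 26.9% lower.

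Few of these genes were called with the other compounds, which called 0.97% of all genes with manassantin and 6.94% with rotenone. With manassantin PIK3CD, a PI3K catalytic subunit, rose by 0.31 (adjusted p = 0.0408), and 0 genes of the other 6 lists passed limma. In those lists 0 to 4 genes per list had an unadjusted p under 0.05, as did 1896 of all 11963 genes. With any 1 of the 6 arrays left out, 0 genes of the list of PIK3CD were called. With rotenone PIK3CD (0.29), SOCS5 (0.30), a suppressor of cytokine signalling, and SPRY2 (0.32, adjusted p = 0.00131), a feedback inhibitor of receptor signalling, were called higher, and no gene of these lists was called lower. The list of SPRY2 had 1 call with each array left out in turn. The list of PIK3CD had 0 calls without DMSO replicate 1 or 2 or rotenone replicate 2 or 3, and that of SOCS5 had 0 without any 1 DMSO array or rotenone replicate 1 or 3.

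**Figure D5:**
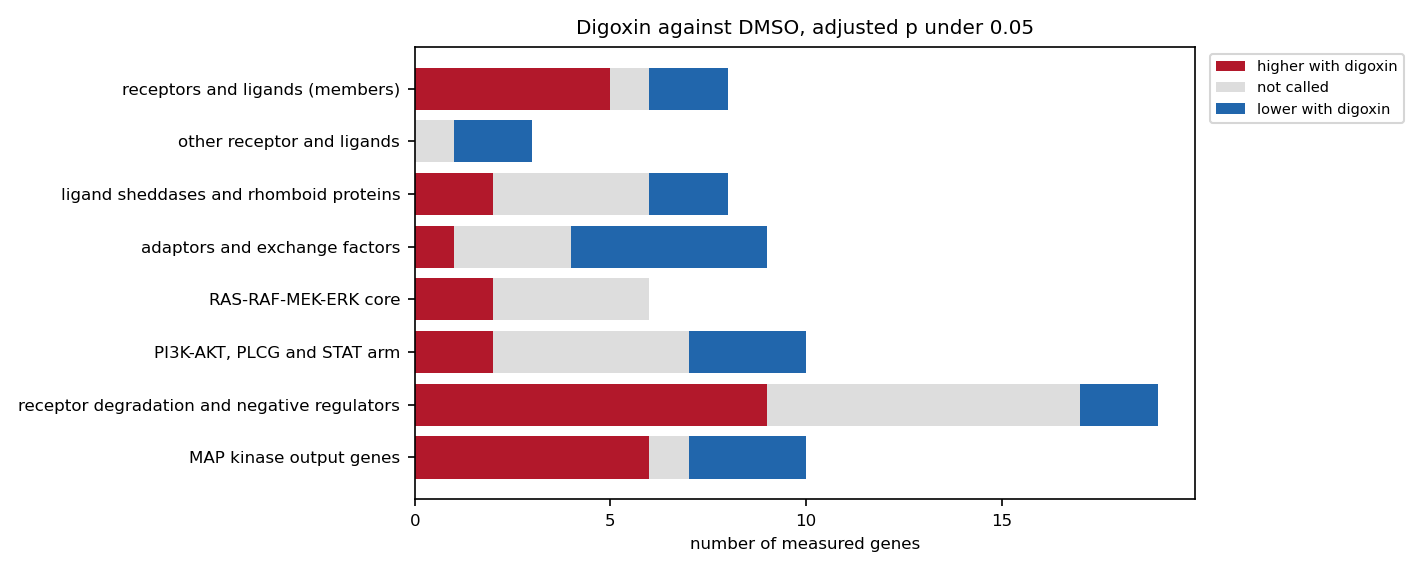
Number of measured genes (horizontal axis) called higher, not called and called lower with digoxin against DMSO, for the 8 receptors and ligands and 7 lists of pathway genes. The receptors and ligands have 5 higher and 2 lower, and the list of receptor degradation and negative regulators has 9 higher and 2 lower of 19. Of all genes 54.8% were called with digoxin, 28% higher and 26.9% lower.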

How the data were processed

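Gene expression was measured on 12 arrays, 3 in each of 4 groups taken from the sample titles. Per the labels, RNA was amplified, labelled with biotin and hybridized to Affymetrix arrays. The deposited values were read as log2 intensities of probe sets on a common scale. Both were inferred from the values themselves (range 1.655 to 13.75, array medians 5.881 to 5.995). How probe sets were summarised and normalised is not recorded in the labels. Of 22277 probe sets, 19064 had 1 gene symbol in the platform annotation, 1043 several and 2108 none, beside 62 controls, and 19052 of the first kind matched a current gene record. Each gene was read at its brightest probe set, giving 11963 genes.

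The limma package 3.58.1 (R 4.3.3) was fitted to all 12 arrays by lmFit and eBayes with the group alone as predictor, leaving 8 residual degrees of freedom plus 3.68 from the prior. P-values were adjusted over all genes within a comparison. No filter on dim genes was used. The procedure was tested on simulated data. The number of arrays limits the precision. Python 3.11.15 with matplotlib 3.10.9 drew the figures.

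Members, lists and motifs were chosen with earlier results of these data known. All 8 measured members are named, with up to 4 called genes of largest change per list and the 3 most similar profiles of members called in at least 2 comparisons with DMSO. EGFR's upstream sequences were added to the set after the values had been seen. Of 7 measured members not on chromosome 8, 6 had a RefSeq promoter entry.

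Groups share replicate numbers. Deviations from group means of same-numbered arrays correlated at 0.107 to 0.362 for manassantin and rotenone, each over 0.1, the level set for pairing, though the meaning of the number is not stated. The values printed for this comparison come from the fit without the block, and the block changed no call of a member. In the other comparisons at least 1 pair was at or below 0.1.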

Additional observations from a re-analysis of the deposited data

How the results depend on the processing

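Log2 differences of the 8 members were recomputed under the alternatives. This gave 756 values, each of 1 member in 1 comparison under 1 alternative. In 718 of them the member was called, or not called, as reported. A call was lost in 29, 6 gained one with the sign unchanged, and 3 had a call with the sign turned. These 3 were NRG1 with the mean of its probe sets, at -0.19 for digoxin against DMSO and 0.17 for manassantin against digoxin, where a reported call turned, and at 0.26 for rotenone against digoxin, where none had been made (-0.00). This follows from the probe sets that disagree. The number of members called against DMSO with digoxin was 7, and 5 with the mean of probe sets. Manassantin against digoxin lost 10 calls of single members, 9 of NRG1 and 1 of TGFA, and its count of members called lay between 6 and 7. With manassantin it was 0, then 1 with dim genes left out, which leaves fewer genes tested, and 2 with a trended robust prior. With rotenone it was 2, and HBEGF was called besides with dim genes left out, with the trended robust prior and with weighted arrays. The rotenone count was 0 with the mean of probe sets, 1 in a fit on only the groups compared, 1 with the 18S covariate and 1 to 2 with an array left out. For manassantin against rotenone it was 1, then 0 with the mean of probe sets, 0 in a fit on only the groups compared, 0 with the 18S covariate and 0 to 1 with an array left out. Beyond what is stated here the cause was not tested. Over all genes, manassantin against DMSO called 116, and 76 with median centring, 491 without dim genes, 503 with a trended robust prior, 278 with weighted arrays, 4 in a fit on the groups compared, 3 with the 18S covariate and 7 to 25 with an array left out. Rotenone against DMSO called 830, and 1301, 1312, 1614 and 339 without dim genes, with the trended robust prior, with weighted arrays and with the 18S covariate, and 346 to 500 with an array left out. Manassantin against rotenone called 1013, and 1540 with dim genes left out, 1545 with the trended robust prior and 500 to 835 with an array left out.

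With the replicate number as a block, the numbers of members called were 0, 2 and 7 for manassantin, rotenone and digoxin against DMSO, 1 for manassantin against rotenone, and 7 and 6 for manassantin and rotenone against digoxin, and no member's call changed. Over all genes the block called 291 for manassantin against DMSO, in place of 116, and 1352 for manassantin against rotenone, in place of 1013. Every array correlated best with its own number for digoxin against DMSO and rotenone against digoxin, 5 of 6 did for rotenone against DMSO, manassantin against rotenone and manassantin against digoxin, and 0 of 6 for manassantin against DMSO. Same-numbered arrays correlated at -0.0347 to 0.0771 in that last comparison.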
